A study of Rattus norvegicus with 4 samples.

Results

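The genes described here are the VEGF family: the ligands Pgf, Vegfa, Vegfb, Vegfc and Vegfd, the tyrosine kinase receptors Flt1, Kdr and Flt4, and the neuropilins Nrp1 and Nrp2. They were read in rat oligodendrocyte precursor cells (OPCs) in which the G protein-coupled receptor gene Gpr17 was silenced (siGPR17), beside control OPCs (siNEG). A probe was counted as a member when the transcript accession that the array lists for it belonged to one of these 10 genes in RefSeq, so no measured value entered that step, although the family itself was chosen with earlier results of these data known. This gave 18 probes for the 10 genes, out of 45565 usable probes and 16568 genes with a named probe.

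All cells were primary OPCs from the pooled cerebral cortices of Sprague-Dawley rats at postnatal day 2, with no genetic change, grown for 3 days with PDGF and bFGF. They were then moved to differentiating medium with thyroid hormone T3 and transfected at once with 50 nM of RNA, either a pool of siRNAs against rat Gpr17 or a non-targeting pool, and lysed 48 h later. Each condition has 2 samples, each on its own one-color array. The labels number the samples of a condition as replicates without naming separate cultures or animals. The p-values therefore measure only the spread between these samples, which may be technical. The silencing was partial: Gpr17 had a normalized signal of 1107 and 1113 on the siNEG arrays and of 652 and 639 on the siGPR17 arrays, so that siGPR17 OPCs were lower by 0.78 on the log2 scale (standard error 0.08). All 14 markers of OPCs and oligodendrocytes were well above background on every array. So were all 8 astrocyte markers, all 8 neuron markers, 7 of 10 microglia markers, 6 of 13 mural and fibroblast markers and 4 of 9 endothelial markers. None of the markers was past the thresholds in limma. Of all genes tested, 7.44% were higher and 8.73% lower in siGPR17 OPCs at an unadjusted p under 0.05 in limma. At an unadjusted p under 0.05 in limma, the OPC and oligodendrocyte marker Mbp was higher in siGPR17 OPCs. Gpr17, Mog at -0.67 and Cspg4 at -0.48 were among those called lower. So were 3 of 8 astrocyte markers (Aqp4 at -1.35, Gfap at -0.61 and Slc1a3 at -0.37 on the log2 scale). Of these 8, 5 lay below and 3 above 0 (Fgfr3 at 0.23, Gja1 at 0.33 and Aldh1l1 at 0.27). The summed signal of all 8, most of it Aldoc, overlapped between the groups, at 116310 and 131062 in siNEG and 118842 and 120066 in siGPR17 OPCs. Of 9 tested microglia markers, 8 lay below 0 and 2 were called lower, Aif1 at -0.56 and P2ry12 at -0.32, and of 6 tested mural and fibroblast markers 1 was called higher and 1 lower. The part of these cell types in the results for the VEGF family was not tested.

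VEGF ligands are secreted dimers that bind tyrosine kinase receptors and are best known for directing the growth of blood and lymph vessels. VEGF-A binds FLT1 (VEGFR1) and KDR (VEGFR2), while PlGF, the product of Pgf, and VEGF-B bind FLT1 but not KDR. VEGF-C and VEGF-D bind FLT4 (VEGFR3), the receptor of lymphatic endothelium, and in processed form KDR. Neuropilins are co-receptors that also bind class 3 semaphorins, guidance cues of axons and of migrating cells. In the developing white matter, OPCs release VEGF-A and other signals towards vessels, and OPCs also migrate along vessels.

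Of the 5 ligands 4 were tested, and 3 of them were called higher in siGPR17 than in siNEG OPCs. The call is an unadjusted p under 0.05 in limma, which 7.44% of all genes reached in that direction. The 3 are Pgf, Vegfa and Vegfc, in the comparison described further on. Their upstream sequences are printed here because they are what these ligands carry next to their annotated starts. Each sequence is the 250 bases before the transcription start that RefSeq annotates in the assembly GRCr8, on the gene's own strand and outside the annotated gene. Capitals mark the letters GGGCGG (a GC box, the core that SP1 binds) or GCGTG (a core of hypoxia response elements), which appear as CCGCCC or CACGC where the match lies on the opposite strand. The windows are chr6:110557748-110557997 on the minus strand for Pgf, chr9:22452604-22452853 on the plus strand for Vegfa and chr16:44560888-44561137 on the minus strand for Vegfc.
Pgf: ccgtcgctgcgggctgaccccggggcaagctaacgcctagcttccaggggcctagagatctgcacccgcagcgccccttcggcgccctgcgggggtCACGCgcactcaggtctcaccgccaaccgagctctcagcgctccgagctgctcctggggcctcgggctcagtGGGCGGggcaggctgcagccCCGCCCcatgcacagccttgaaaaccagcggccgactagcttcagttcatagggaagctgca
Vegfa: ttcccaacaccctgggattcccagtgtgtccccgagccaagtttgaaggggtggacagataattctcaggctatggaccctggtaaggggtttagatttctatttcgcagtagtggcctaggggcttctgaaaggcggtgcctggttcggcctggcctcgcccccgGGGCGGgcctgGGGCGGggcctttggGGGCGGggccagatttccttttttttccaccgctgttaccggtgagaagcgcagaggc
Vegfc: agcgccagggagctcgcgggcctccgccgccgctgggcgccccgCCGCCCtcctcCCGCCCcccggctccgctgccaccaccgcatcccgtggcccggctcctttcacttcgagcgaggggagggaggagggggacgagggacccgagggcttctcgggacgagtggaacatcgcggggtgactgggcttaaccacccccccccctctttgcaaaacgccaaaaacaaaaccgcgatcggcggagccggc

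The Pgf window held 2 GC boxes, one on each strand, and 1 GCGTG. The Vegfa window held 3 GC boxes, all on the gene's strand and all between 84 and 58 bases before the start, and no GCGTG. In the Vegfc window the 2 GC boxes lay on the opposite strand, 206 and 195 bases before the start. All 3 windows were rich in G and C, with 69.2% in Pgf, 60.4% in Vegfa and 72.4% in Vegfc, against a median of 52.0% over all 27457 annotated promoters.

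Over the whole family, GGGCGG was found on either strand before 7 of the 10 genes, against 32.4% of all promoters. GCGTG was found before 6 of them, namely Pgf, Vegfb, Flt1, Kdr, Nrp1 and Nrp2, against 27.2% of all promoters. The other form of the hypoxia core, ACGTG, was in none of the 10 windows and in 16.9% of all promoters, and TGACGT, the core of the cyclic AMP response element, was found before Flt1 only, against 7.2%. No match overlaps another in the windows printed above. GC boxes were not particular to the genes called higher in siGPR17 OPCs: Pgf, Vegfa, Vegfc and Kdr carried them, and so did Vegfb, with 4, Flt1 and Flt4. Each window was taken from the first listed start of a gene. The windows of Vegfb, Vegfd, Flt1, Kdr and Nrp2 overlap the annotated gene, so their matches need not lie outside it. The windows of all promoters were not screened for such overlap. A match is a run of letters and not a site, and these windows leave out enhancers and everything beyond the 250 bases.

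**Figure D1:**
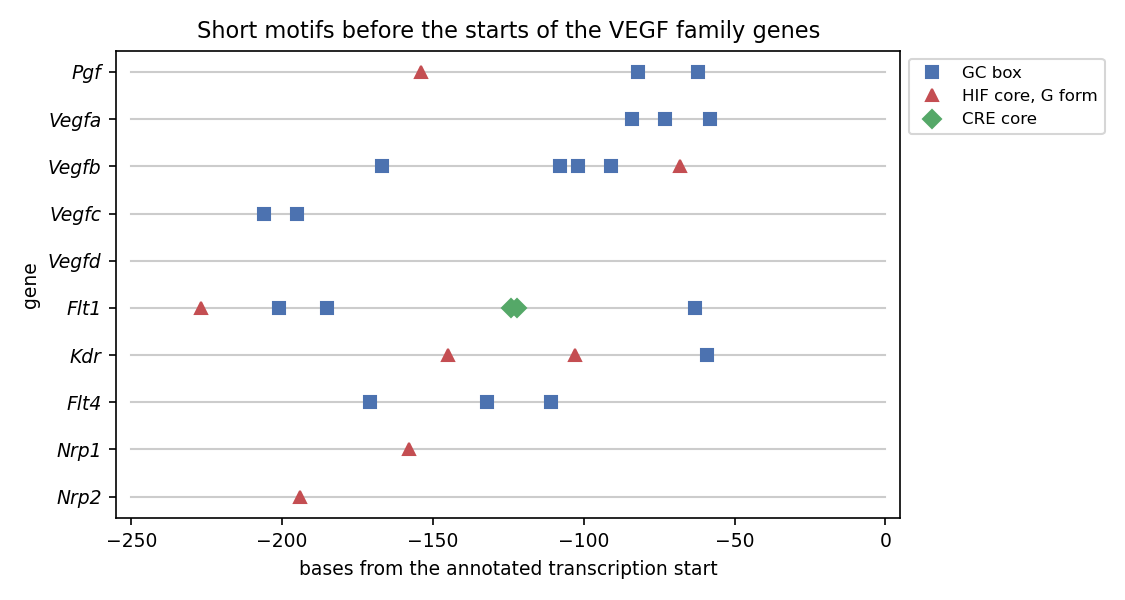
Positions of the matches in the 250 bases before the annotated start of each of the 10 genes, with the distance from the start in bases on the horizontal axis and both strands combined. Squares are GC boxes, triangles the GCGTG core and diamonds the TGACGT core, and Vegfd has no match. The windows of Vegfb, Vegfd, Flt1, Kdr and Nrp2 overlap the annotated gene.

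Before arrays were compared, each was scaled by its own 75th percentile, between 564.3 and 623.2 intensity units, and a scaled value is printed on the linear scale as the normalized signal. Levels of different probes do not measure the relative amounts of their RNAs, so each probe is compared only between arrays. Summed signals of marker probes are also compared only between arrays, and the brightest probes weigh most in them. No non-control spot was saturated. The arrays share 1 slide and 1 scan, with both replicates 1 in one row of it and both replicates 2 in the next. The siNEG arrays lay in one column and the siGPR17 arrays in another, so treatment and slide column cannot be told apart. In bulk RNA, fewer cells of a type and less RNA per cell cannot be told apart either.

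Of the 18 probes, 11 were well above background on all 4 arrays and were tested, and they represent 8 of the 10 genes. The other 7 were dim, 5 of them not well above background on any array and 2 on only 1 array, and Vegfd and Flt1 had only dim probes. A test covered all probes well above background on at least 2 arrays, 27996 in all, of which 14833 with a symbol represent 11642 genes. Where a gene had more than 1 tested probe, the brightest stands for it.

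**Figure D2:**
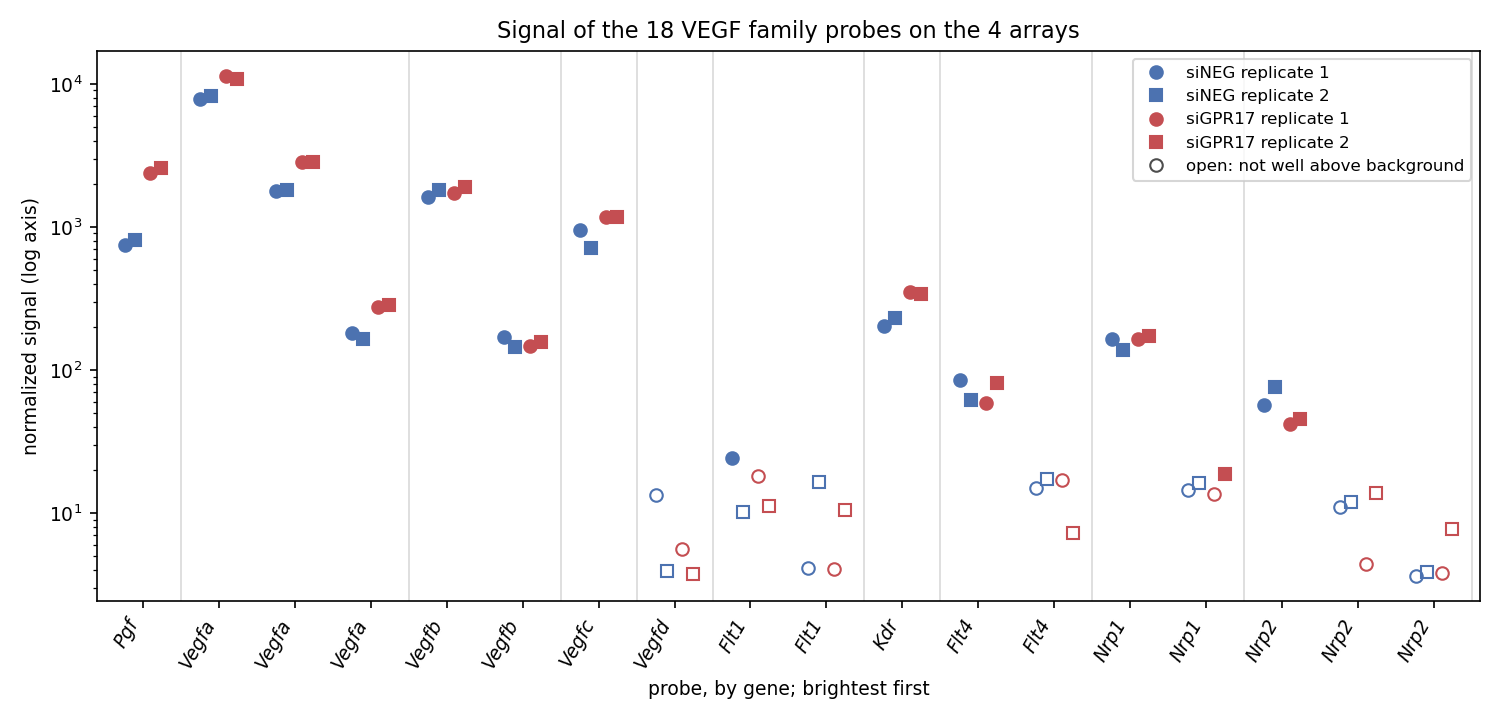
Normalized signal, on a log axis, of each of the 18 probes on each of the 4 arrays, grouped by gene with the brightest probe first. Blue points are siNEG and red points siGPR17 arrays, circles replicate 1 and squares replicate 2, and open symbols were not well above background; the Pgf, Vegfa, Vegfc and Kdr probes have both red points above both blue ones, while Vegfd, Flt1 and the dimmer probes of Flt4, Nrp1 and Nrp2 lie near the bottom.

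Pgf had the greatest difference of the family. It encodes placental growth factor, a ligand of FLT1 that is scarce in most resting adult tissues. The normalized signal was 753 and 812 on the siNEG arrays and 2363 and 2581 on the siGPR17 arrays. Both siGPR17 values lay about the same distance above both siNEG values. The ratio was 3.16, or 1.66 on the log2 scale (standard error 0.10, 95% confidence interval 1.38 to 1.94). The difference was 1.65 within the first slide row and 1.67 within the second. Among the 11642 genes tested, Pgf had rank 13 from the greatest rise. Its adjusted p in limma with the Benjamini-Hochberg procedure over all tested probes was 0.209, above the threshold of 0.07 that the study used together with a fold of 1.5. With eBayes set to model the trend of the spread with intensity and to be robust to outlying probes, the adjusted p of Pgf was 0.00147, and over the 15 other settings tried it ranged from 0.00147 to 0.664.

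Vegfa, the central ligand for the growth of vessels and the one that responds to low oxygen through HIF transcription factors, had 3 tested probes, and on each of them both siGPR17 arrays stood above both siNEG arrays. The brightest probe read 7789 and 8193 in siNEG and 11382 and 10742 in siGPR17 OPCs. The difference was 0.47 on the log2 scale (standard error 0.09, 95% confidence interval 0.22 to 0.72, adjusted p in limma 0.211). Another probe, assigned to another transcript of the gene, read 1797 and 1807 against 2856 and 2843, which is 0.66 on the log2 scale. The dimmest read 182 and 164 against 277 and 286, which is 0.70. The probes thus shared the direction but not the size: the brightest one stood at a ratio of 1.38, below the fold of 1.5, and the other two at 1.58 and 1.63. With the mean of the 3 probes the log2 fold change was 0.61. For the brightest probe the adjusted p in limma was 0.0407 with the trend and robust options. It was 0.0510 with normexp background correction and 0.398 with a block for the replicate number. The fold of that probe stayed below 1.5 in these 3 settings.

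Vegfc, a ligand of FLT4 and a growth factor of lymphatic vessels, read 947 and 712 in siNEG and 1177 and 1172 in siGPR17 OPCs. The siGPR17 arrays were nearly equal and both stood above the siNEG arrays, which differed from each other by 0.41 on the log2 scale. The log2 fold change was 0.52 (standard error 0.17, 95% confidence interval 0.06 to 0.97, adjusted p in limma 0.271). The value rested in part on the siNEG arrays, since leaving out siNEG replicate 2 gave 0.31 and leaving out siNEG replicate 1 gave 0.72.

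Not all ligands were called higher. Vegfb, a ligand of FLT1 with little activity on vessel growth, read 1627 and 1803 in siNEG and 1719 and 1903 in siGPR17 OPCs. The groups overlapped, and the log2 fold change of 0.08 had a 95% confidence interval of -0.22 to 0.38. That interval overlaps the one of the brightest Vegfa probe, 0.22 to 0.72, and whether ligands differ from each other was not tested. On the dimmer Vegfb probe the groups overlapped too, at -0.05. Vegfd, the other ligand of FLT4, read 13.4 and 3.93 in siNEG and 5.66 and 3.74 in siGPR17 OPCs. No array had it well above background, so no difference was detectable and no fold is given.

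Kdr encodes VEGFR2, the main signalling receptor for VEGF-A on endothelium. Its probe read 202 and 233 in siNEG and 354 and 340 in siGPR17 OPCs. Both siGPR17 arrays stood above both siNEG arrays, a ratio of 1.60 and a log2 fold change of 0.68 (standard error 0.11, 95% confidence interval 0.37 to 0.98, adjusted p in limma 0.209). The difference was 0.81 within the first slide row and 0.55 within the second. With the trend and robust options the adjusted p was 0.0354, and over the 15 other settings it ranged from 0.0354 to 0.664. With normexp background correction the log2 fold change was 0.52, below a fold of 1.5.

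Because Kdr is used as a mark of endothelial cells, the other endothelial markers were read beside it. Of the 9 such markers with a probe, 4 were well above background on all arrays, and Pecam1, Tie1, Cldn5 and Emcn were on none. Their summed normalized signal was 1041 and 907 in siNEG and 1358 and 1280.0 in siGPR17 OPCs, so it was higher on both siGPR17 arrays, as Kdr was. Most of that sum was Vwf, the clotting factor carrier of endothelium, with 869 and 738 against 1165 and 1071. The endothelial receptor Tek read 34.1 and 40.9 against 51.0 and 55.4. Their log2 fold changes were 0.48 and 0.51. Of the 5 endothelial markers tested, 3 lay above and 2 below 0. Vwf and Tek had an unadjusted p under 0.05 in limma, against 16.2% of all genes, and none was past the thresholds. Cdh5, a junction protein, stood at 0.33, while Esam at -0.06 and Erg at -0.05 overlapped between the groups. The part of endothelial cells in the result for Kdr was not tested.

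The other 2 receptors gave little signal. Flt1, the receptor that PlGF, VEGF-A and VEGF-B share, read 24.3 and 10.1 in siNEG and 18.1 and 11.2 in siGPR17 OPCs on its brighter probe, which was well above background on siNEG replicate 1 only. None of the arrays had its other probe well above background. No difference in Flt1 was therefore detectable. Flt4 read 85.9 and 61.7 against 59.1 and 81.0, and the groups overlapped. The log2 fold change of -0.07 (standard error 0.24, 95% confidence interval -0.74 to 0.60, adjusted p in limma 0.898) had no settled sign, since it was 0.064 with normexp and 0.055 with scaling on the spike-ins.

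The neuropilins lay apart from each other. Nrp1, co-receptor of KDR for VEGF-A and of plexins for SEMA3A, read 164 and 137 in siNEG and 164 and 173 in siGPR17 OPCs. The siGPR17 replicate 1 array was almost equal to the siNEG replicate 1 array, with a difference of 0.00068 on the log2 scale within the first slide row and of 0.33 within the second. Over all arrays the log2 fold change was 0.17 (standard error 0.12, 95% confidence interval -0.17 to 0.51, adjusted p in limma 0.535). Leaving out siNEG replicate 2 gave 0.04, leaving out siNEG replicate 1 gave 0.29, and scaling on the spike-ins also gave 0.29. Its dimmer probe was well above background on 1 siGPR17 array only.

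Nrp2, co-receptor of FLT4 for VEGF-C and of plexins for SEMA3C and SEMA3F, was the member that stood lowest in siGPR17 against siNEG OPCs. One probe read 57.4 and 75.6 in siNEG and 42.0 and 45.5 in siGPR17 OPCs, and the groups did not overlap. The log2 fold change was -0.59 (standard error 0.17, 95% confidence interval -1.05 to -0.14, adjusted p in limma 0.247). This probe is assigned to a predicted transcript, and the 2 probes of the curated Nrp2 transcript were dim on all arrays. The value was -0.24 with normexp and -0.39 without siNEG replicate 2. The summed signal of the 8 neuron markers was also lower on both siGPR17 arrays, at 25062 and 26457 in siNEG and 23515 and 22885 in siGPR17 OPCs. All 8 were well above background on all arrays and all 8 had a log2 fold change below 0. Most of that sum was Gap43, and 3 of the 8 had an unadjusted p under 0.05 in limma, against 8.73% of all genes in that direction. The part of neurons in that sum and in the result for Nrp2 was not tested.

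**Figure D3:**
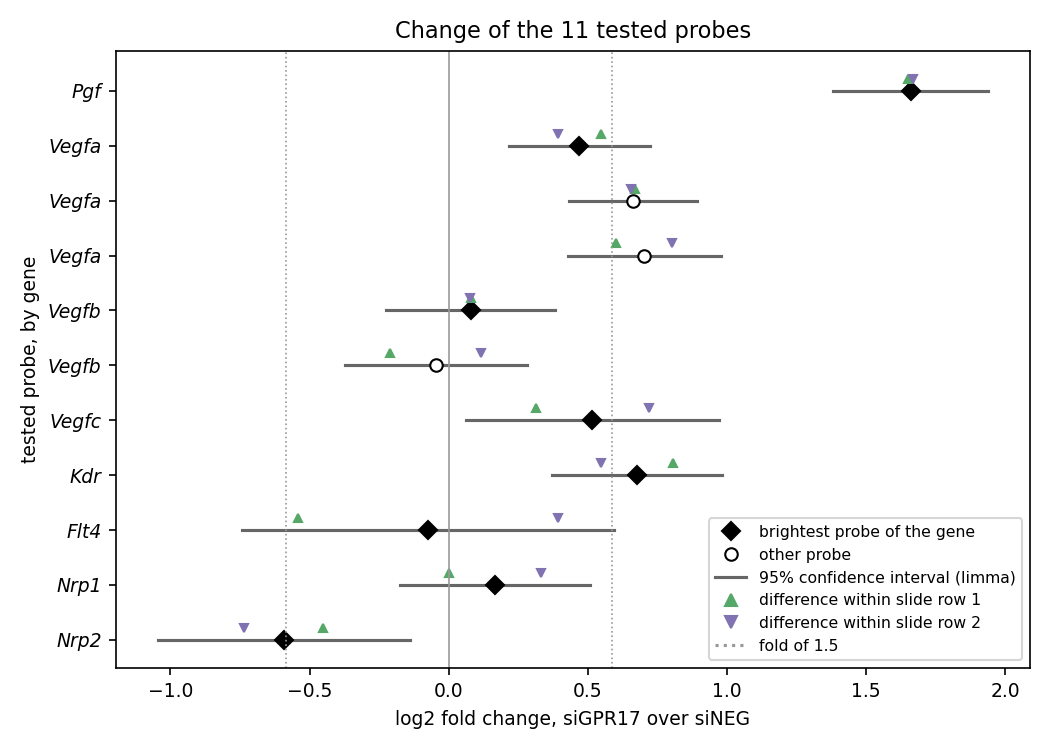
Log2 fold change, siGPR17 over siNEG, of the 11 tested probes with the 95% confidence interval from limma; diamonds are the brightest probe of a gene, open circles its other probes and triangles the difference within each slide row. Pgf lies at 1.66, all 3 Vegfa probes between 0.47 and 0.70, and the intervals of Vegfb, Flt4 and Nrp1 span 0; dotted lines mark a fold of 1.5.

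Counted together, 0 of the 8 tested members were past a fold of 1.5 and an adjusted p of 0.07 in limma, where 0 of the 11642 genes were (0%). The study reports a list of differentially expressed genes from these arrays at the same thresholds. Its calls thus differ from those of limma as run here, and the cause was not tested. With the trend and robust options 2 members were past the thresholds, Pgf and Kdr, against 1.58% of genes. With normexp 1 was, Pgf, against 0.962%, and with the methods' t-test 0 of the members and 0% of the genes were, while 3 members had an unadjusted p under 0.05 in it, against 14.4%. At an unadjusted p under 0.05 in limma, 5 of the 8 members were called, against 16.2% of all genes. Of these, 4 were higher in siGPR17 OPCs (Pgf, Vegfa, Vegfc and Kdr), against 7.44% of genes, and 1 was lower (Nrp2), against 8.73%. Without siGPR17 replicate 1 the log2 fold changes were 1.72 for Pgf, 0.43 for Vegfa, 0.51 for Vegfc, 0.65 for Kdr and -0.54 for Nrp2. Without siGPR17 replicate 2 they were 1.60, 0.51, 0.52, 0.71 and -0.65 in the same order. The call of Nrp2 was lost with quantile normalization and that of Vegfc with no filter on dim probes, which left 4 in each. Over all genes, 2176 of 11642 were called with quantile normalization and 1788 of 16568 with no filter.

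The members' arrays did not overlap between the groups in 6 of 8, against 53.4% of all genes. In 5 of them siGPR17 was the higher group (Pgf, Vegfa, Vegfc, Kdr and Nrp1), against 28.1%, and in 1 the lower (Nrp2), against 25.3%. Nrp1 is counted there by a difference of only 0.00068 on the log2 scale between the replicate 1 arrays. A fold of 1.5 or more was reached by 3 of them, Pgf, Kdr and Nrp2, against 5.05%. The median log2 fold change of the 8 members was 0.32, with 6 above 0 and 2 below, beside a median of 0.01 over all genes tested, of which 52% were above 0. It lay between 0.23 and 0.45 over the 15 other settings, in which Flt4 was the only member that changed sign. Scaling on the spike-ins moved the median of all genes by 0.13, and with it the members' median was 0.45 against 0.14 for all genes. The study drew Pgf, Vegfa and Kdr in a network picture of genes that it relates to lipid synthesis, not of the VEGF family. That picture was made from these same arrays, so the direction of the 3 genes here is not independent evidence.

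**Figure D4:**
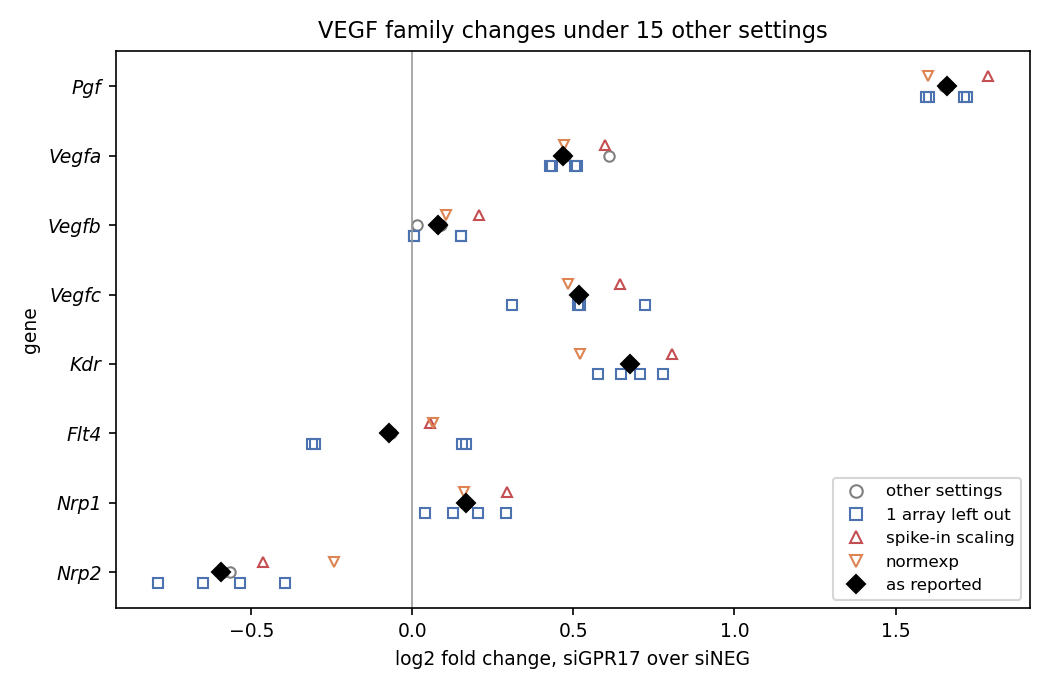
Log2 fold change, siGPR17 over siNEG, of the 8 tested genes as reported (black diamonds) and under 15 other settings. Pgf stays between 1.60 and 1.79 and Kdr between 0.52 and 0.80, while Flt4 falls on both sides of 0.

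Of the genes that carry the signal below the receptors, 45 of 51 listed were tested, 27 above and 18 below 0, with a median of 0.03, which moved to 0.16 with scaling on the spike-ins and to -0.02 without siNEG replicate 1. None was past the thresholds in limma. At an unadjusted p under 0.05, 2 were higher and 3 lower in siGPR17 OPCs, against 7.44% and 8.73% of all genes. One of the 2 was Sphk1, which could be tested only because of the group in which it is high. Without it 1 was higher, and the median was 0.03. Sphk1, which makes the lipid messenger sphingosine-1-phosphate, was not well above background in siNEG (9.87 and 10.8) and was so on both siGPR17 arrays (25.4 and 26.1), at least 1.57-fold higher. For this bound, a dim array counted at no less than the faintest signal called well above background on it. Nfatc1, a transcription factor that calcineurin activates, read 2357 and 2320 against 2997 and 3184, 0.40 on the log2 scale. Ptprj, a phosphatase that acts on KDR, read 9943 and 11405 against 8007 and 6812, which is -0.53.

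Among the partners of neuropilins, the class 3 semaphorins, plexins and adhesion molecules that bind or signal with them, 9 of 15 listed were tested, 3 above and 6 below 0, with a median of -0.27, which ran from -0.31 to -0.13 when 1 array was left out, was lowest without siGPR17 replicate 1 and nearest to 0 without siNEG replicate 1, and was -0.070 with normexp. At an unadjusted p under 0.05, 2 were higher and 2 lower, against 7.44% and 8.73% of all genes. Sema3e, which signals through plexin D1, read 204 and 199 in siNEG and 344 and 325 in siGPR17 OPCs, which is 0.73 on the log2 scale. Sema3c, a ligand of both neuropilins, read 38.4 and 29.0 against 19.5 and 21.9, which is -0.69. Sema3b read 70.9 and 68.2 against 83.9 and 87.8, a smaller difference of 0.30. The semaphorins thus lay on both sides of 0, as the 2 neuropilins did.

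Proteases, matrix proteins and heparan sulfate carriers process VEGF or hold it outside the cell. Of 25 listed, 14 were tested, 3 above and 11 below 0, with a median of -0.22, which was -0.090 with scaling on the spike-ins. At an unadjusted p under 0.05, 1 was higher and 3 were lower, against 7.44% and 8.73% of all genes. The membrane metalloprotease Mmp14 read 83.1 and 88.9 in siNEG and 51.4 and 40.8 in siGPR17 OPCs, which is -0.91 on the log2 scale. Thbs2, a thrombospondin of the matrix, read 31.7 and 36.7 against 23.3 and 22.8, which is -0.57. Adamts1, a secreted protease that can bind VEGF-A, read 198 and 201 against 235 and 249.9, which is 0.28.

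Of 20 genes known to act on the transcription or the mRNA of VEGF genes, 16 were tested, 5 above and 11 below 0. The median was -0.12, and it was 0.0059 with scaling on the spike-ins. At an unadjusted p under 0.05, 1 was higher and 3 were lower, against 7.44% and 8.73% of all genes. Zfp36l1, which binds the Vegfa mRNA and speeds its decay, read 1790 and 1838 in siNEG and 1315 and 1281 in siGPR17 OPCs, which is -0.48 on the log2 scale. Epas1, the hypoxia-inducible factor HIF-2 alpha, read 158 and 173 against 132 and 110, which is -0.45. Mtf1, a transcription factor that responds to metals, read 209 and 212 against 253 and 263, which is 0.29. None of the genes of this list, of the neuropilin partners or of the extracellular list was past the thresholds in limma.

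The PDGF family, the nearest relatives of the VEGF ligands and receptors and the main growth factors of OPCs, was read for comparison. Of its 7 genes 4 were tested, 1 above and 3 below 0, with a median of -0.16 and none past the thresholds in limma. At an unadjusted p under 0.05 in limma, 1 was higher (Pdgfa) and 1 lower (Pdgfrl), against 7.44% and 8.73% of all genes. Pdgfa, the ligand that drives OPC proliferation, read 21970 and 22659 in siNEG and 26897 and 27043 in siGPR17 OPCs, which is 0.27 on the log2 scale. Pdgfra, its receptor on OPCs, read 17719 and 16502 against 14496 and 14646, which is -0.23 with an unadjusted p in limma of 0.062. Pdgfrl, a receptor-like protein, was well above background in siNEG only (19.4 and 24.4) and read 6.69 and 12.8 in siGPR17 OPCs, at least 1.35-fold lower. It could be tested only because of the siNEG arrays, and without it no gene was called lower and the median was -0.090. The median was -0.03 without siNEG replicate 1, -0.29 without siNEG replicate 2 and -0.03 with scaling on the spike-ins. Whether the 2 families differ in their response was not tested.

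**Figure D5:**
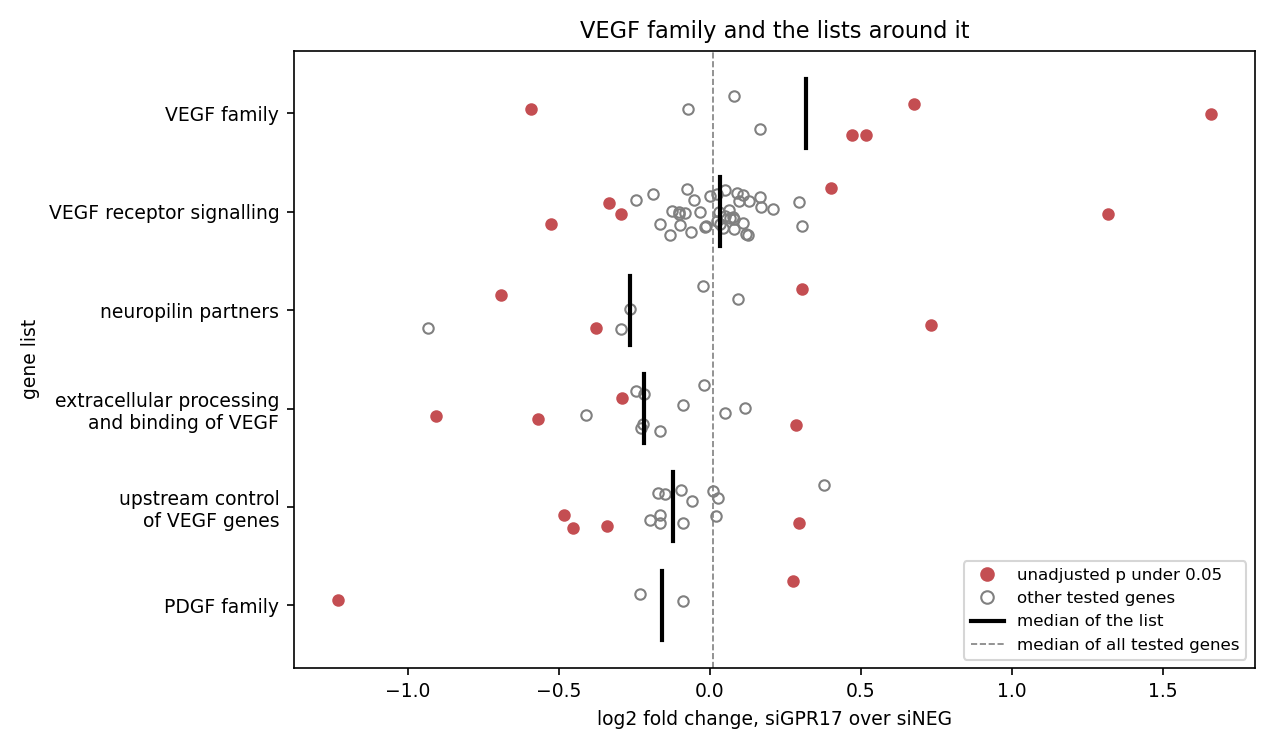
Log2 fold change, siGPR17 over siNEG, of every tested gene of the VEGF family and of the 5 lists around it. Red points have an unadjusted p under 0.05 in limma, black bars are the medians (0.32 for the VEGF family, -0.27 to 0.03 for the lists) and the dashed line is the median of all genes tested; Sphk1 at the right of its row and Pdgfrl at the left of its row are drawn at their fitted values, each dim in one group.

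The genes whose arrays most resembled those of Pgf were found by the distance between their log2 values over the 4 arrays, each centred on its siNEG mean, so that a small distance means nearly the same 4 values. The nearest of the 11642 genes were Mgmt, Ptprv, Cdkn1a, Mylk and Slc35g2, at distances from 0.10 to 0.33 and with log2 fold changes of 1.69, 1.67, 1.52, 1.66 and 1.44. The genes nearest to Vegfa were Hsd17b7, Syce2, Nlgn3, Kcnrg and Baat, at distances from 0.03 to 0.05 and with log2 fold changes between 0.45 and 0.50. No other member was among the nearest 5 of either. With 4 arrays in 2 groups such likeness is mostly likeness in the size of the difference, and it is given as a description.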

How the data were processed

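The authors hybridised cyanine 3 labelled RNA of 4 samples to Agilent rat arrays and deposited, for each array, the spot intensities that Feature Extraction 10.7.3.1 gave after its own background correction, with no normalization between arrays. The spot and background medians in the same files are intensities before any correction.

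From the deposited intensities, control spots and outlier spots were left out, spots of a probe were averaged, and log2 values were scaled on the 75th percentile of each array. Probes well above background on at least 2 arrays were tested by limma's lmFit and eBayes (limma 3.58.1, R 4.3.3), with no block and with Benjamini-Hochberg adjustment over all 27996 tested probes. The thresholds, a fold of 1.5 and an adjusted p of 0.07, are the study's, whose array methods name no test. With 2 arrays a group, an exact permutation test cannot go below a two-sided p of 0.333. Intervals are 95% intervals from limma, and the number of arrays limits their precision.

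Names come from RefSeq accessions, matched without versions for 19243 of 20489 probes with a curated accession. The array design uses an older build, so no gene coordinates are given apart from the promoter windows of GRCr8. The members, the 5 pathway lists and the 6 marker lists were chosen with earlier results of these data known. Named genes are all members, Gpr17, in each list those past the thresholds and the 3 with the lowest unadjusted p, the 5 genes nearest to Pgf and to Vegfa, and markers beside a result.

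Alternatives were normexp with an offset of 50, on spot medians since the spot mean was not used here, quantile normalization, scaling on the median or on spike-ins, no filter on dim probes, a floor for them or a filter that asked for signal on all 4 arrays, the methods' t-test, limma's trend and robust options, a replicate block, each array left out and the mean of a gene's probes. The code was tested on simulated data.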

Additional observations from a re-analysis of the deposited data

How the results depend on the processing

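Direction held for Pgf, Vegfa, Vegfb, Vegfc, Kdr, Nrp1 and Nrp2 under all 15 alternatives. Flt4 changed sign, to 0.064 with normexp and 0.055 with scaling on the spike-ins, and ran from -0.31 to 0.17 when 1 array was left out, above 0 without replicate 1 of either group. Members past the thresholds numbered 0 in limma, 2 with the trend and robust options and 1 with normexp, where genes past them numbered 0, 184 and 112. Members with an unadjusted p under 0.05 numbered 5 in limma and 3 with the methods' t-test. They numbered 4 with quantile normalization (Nrp2 lost) and 4 with no filter on dim probes (Vegfc lost). The counts over all genes in these settings were 1882, 1674, 2176 and 1788 in the same order. Where one array was left out, the group's lone sample is assumed to vary like the other group. With normexp the medians were -0.070 for the neuropilin partners and -0.11 for the extracellular list. With scaling on the spike-ins, which moved all genes by 0.13, they were 0.16 for receptor signalling, -0.090 for the extracellular list and 0.0059 for the upstream list. With no filter on dim probes the extracellular list had -0.11. With 1 array left out, the extracellular list ran from -0.26 to -0.13, the neuropilin partners from -0.31 to -0.13, the PDGF family from -0.29 to -0.03 and the upstream list from -0.18 to -0.049. The causes were not tested.

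Same-numbered arrays share a slide row, and the labels give no other pairing. Deviations of same-numbered arrays correlated at -0.07 across genes, which are not independent replicates. With the replicate block, which is also a block for the slide row, 5 members had an unadjusted p under 0.05 and 0 were past the thresholds, with an adjusted p of 0.390 for Pgf in limma, and it changed no call of a member. Of the 19 calls at an unadjusted p under 0.05 in the 5 lists around the family, 10 were lost and 1 was gained with it (Epas1, Mtf1, Hif1an, Adamts1, Sdc1, Sema3b, Plxna3, Pik3ca and Pdgfa were among those lost), where the count over all genes went from 1882 to 1275. Among the markers, the calls of Mbp, P2ry12 and Nefl were among those lost with it and 1 mural or fibroblast marker was gained. Dim probes limit what can be said of Vegfd, Flt1 and the curated Nrp2 transcript.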
